A study of Mus musculus with 18 samples.

Results

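The comparison described here is that of K19R with FLAG-WT mouse embryonic stem cells at day 0, before differentiation. It rests on 4 of the 18 RNA-seq libraries of the series, chosen by their labels: 2 of FLAG-EED K19R knock-in cells and 2 of FLAG-EED wildtype knock-in cells (FLAG-WT). Both lines carry a FLAG tag on EED, and the K19R form has arginine in place of lysine 19. At day 0 both were grown on gelatin in medium with serum, leukemia inhibitory factor (LIF) and the inhibitors of MEK and GSK3 known as 2i. The 12 FLAG-EED libraries of embryoid bodies at days 2, 6 and 10, grown without LIF and 2i, share the estimate of spread with the day 0 libraries and are used below to follow genes that differed at day 0. How many clones stand behind each line, their sex and the origin of the parental cells are not given in the sources used here, and neither is whether replicates came from separate cultures.

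EED is the subunit of Polycomb repressive complex 2 (PRC2) that binds trimethylated lysine 27 of histone H3 and stimulates the methyltransferases EZH2 and EZH1. PRC2 keeps developmental regulators silent in embryonic stem cells together with Polycomb repressive complex 1 (PRC1). Arginine keeps the positive charge of lysine but cannot be acetylated. The series' title places the work in acetylation of EED and the targeting of PRC2. The day 0 comparison asks how far the lines already differed as stem cells.

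Depth ran from 20158077 to 25634796 counts, over 24343 to 24957 detected genes. Levels are in CPM, counts divided by library size and a trimmed-mean scaling factor, and changes are log2 fold changes, K19R minus FLAG-WT, with their standard error (SE). A gene was called where edgeR's quasi-likelihood test gave a Benjamini-Hochberg adjusted p under 0.05. Levels are not divided by gene length and are compared only within a gene.

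FLAG-WT replicate 2 stood apart from the other libraries in transcripts of the visceral endoderm, the extraembryonic tissue that secretes and takes up serum proteins. All 15 primitive and visceral endoderm markers summed to 75.8 and 178.4 CPM in FLAG-WT replicates 1 and 2 and to 128.1 and 162.5 in K19R. That sum includes Lrp2, an endocytic receptor gene that these cells also expressed and that was higher in K19R. The other 14 were therefore also summed without Lrp2. The sum was 14.1 CPM in FLAG-WT replicate 1, 103 in replicate 2, and 12.3 and 13.9 in the K19R replicates. The single gene Afp, described below, gave 54.99 CPM of the sum in FLAG-WT replicate 2. Without Lrp2 and Afp, the remaining 13 markers summed to 12.34 and 47.48 CPM in FLAG-WT replicates 1 and 2. In K19R replicates 1 and 2 they summed to 12.03 and 13.82 CPM. The gap was thus smaller without Afp, but FLAG-WT replicate 2 still had the highest sum. No marker was at 0 in every library, but 3 and 4 of the 15 were at 0 in K19R replicates 1 and 2. In the longer list of 23 tested visceral endoderm genes, 12 were lower in K19R and 2 were higher (60.9% called, against 10.5% of all genes). The list's median change went from -2.24 to -0.50 without FLAG-WT replicate 2. Fewer endoderm cells and less of these RNAs per cell cannot be told apart in bulk libraries.

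For this reason each call was also made without that library. A gene is said below to hold where it was called in the same direction in both fits. Of 19092 genes tested, 2003 were called (10.5%), 1052 of them higher in K19R (5.51%) and 951 lower (4.98%). The number that held was 817, or 4.28% of the genes tested, with 441 higher (2.31%) and 376 lower (1.97%). In all 817 the 2 K19R libraries lay outside the range of the 2 FLAG-WT libraries. The same was true of 1181 of the 1186 called genes that did not hold, so it does not set the 817 apart. Where a lack of overlap is mentioned below, it describes a called gene and adds no support to the call. At least 2-fold differences made up 170 of the 817, 108 higher and 62 lower. A smaller set of 520 genes was called in the same direction whichever single day 0 library was left out.

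**Figure D1:**
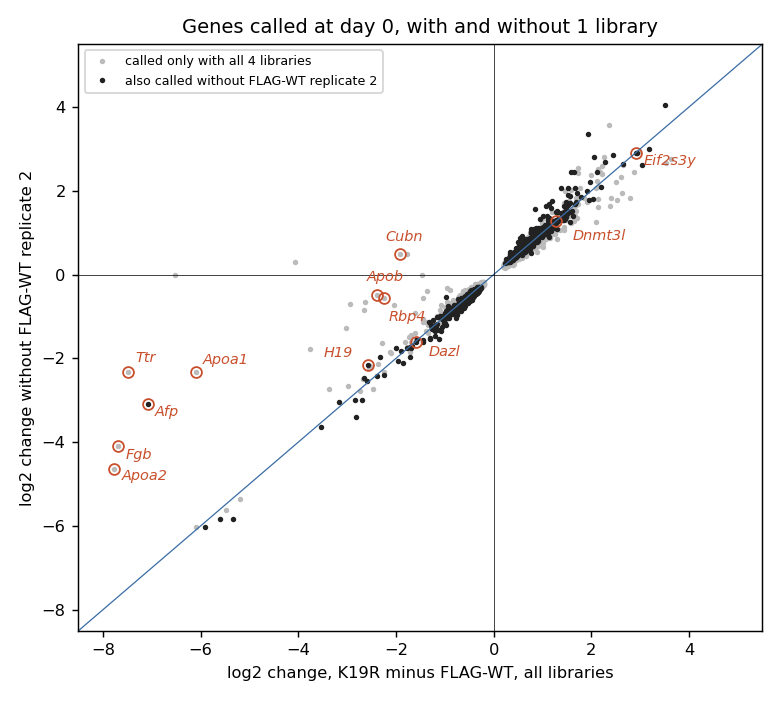
Each point is a gene called at day 0, with its log2 change (K19R minus FLAG-WT) from all libraries on the horizontal axis and without FLAG-WT replicate 2 on the vertical axis. Black points are the 817 genes that hold, grey points those that do not, and the line marks equal values. Endoderm genes such as Ttr, Apoa1 and Apob lie well above the line, while Dazl and Eif2s3y lie on it.

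Leaving out any 1 of the 4 libraries cut the calls to between 845 and 955, so a call that did not hold need not owe its size to FLAG-WT replicate 2. Among the largest that did not hold, Apob, which encodes the main protein of low-density lipoprotein, stood at 2.27 and 14.5 CPM in FLAG-WT replicates 1 and 2 and at 1.44 and 1.82 in K19R. Its change went from -2.39 ± 0.47 (SE; edgeR adjusted p = 0.0013) to -0.50 without FLAG-WT replicate 2 (adjusted p = 0.4). Rbp4, the plasma carrier of retinol, went from -2.24 to -0.56. The keratin gene Krt18 (8.71 and 16.2 against 6.38 and 7.12 CPM) went from -0.89 to -0.37. In Apob, Rbp4 and Krt18 FLAG-WT replicate 1 lay nearer to K19R than to its own replicate. Of the other 5 largest changes that did not hold, Gpr85 (1.21), Cfap206 (0.95), Lck (0.90) and Platr16 (0.87) were higher and Fam20c (-0.94) was lower. All of these genes were picked among those in which the lines did not overlap, so the lack of overlap was set by the choice. Without replicate 2, Gpr85 changed by 0.996, Cfap206 by 0.955, Lck by 0.725, Platr16 by 0.668 and Fam20c by -0.756.

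Afp, the fetal serum protein alpha-fetoprotein, was named among the genes that hold, but most of its size came from the same library. It had 43 and 1391 counts in FLAG-WT replicates 1 and 2 and 8 and 2 in K19R, that is 1.78 and 54.99 against 0.295 and 0.0931 CPM. The change was -7.08 with all libraries and -3.08 ± 0.61 without replicate 2 (adjusted p = 0.0022). Apoe, another lipid carrier, also held (36.0 and 60.8 against 25.9 and 23.6 CPM), at -0.97 and -0.54 without replicate 2. Some endoderm genes were higher in K19R. Lrp2, of the same list, with 61.7 and 75.9 CPM in FLAG-WT and 116 and 149 in K19R, changed by 0.94 ± 0.12 (adjusted p = 3.5e-06), and its partner in endocytosis Dab2, of the list of endoderm regulators, by 0.95 ± 0.14 (16.8 and 26.2 against 40.9 and 42.4 CPM). Both were higher in both K19R libraries than in either FLAG-WT library.

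**Figure D2:**
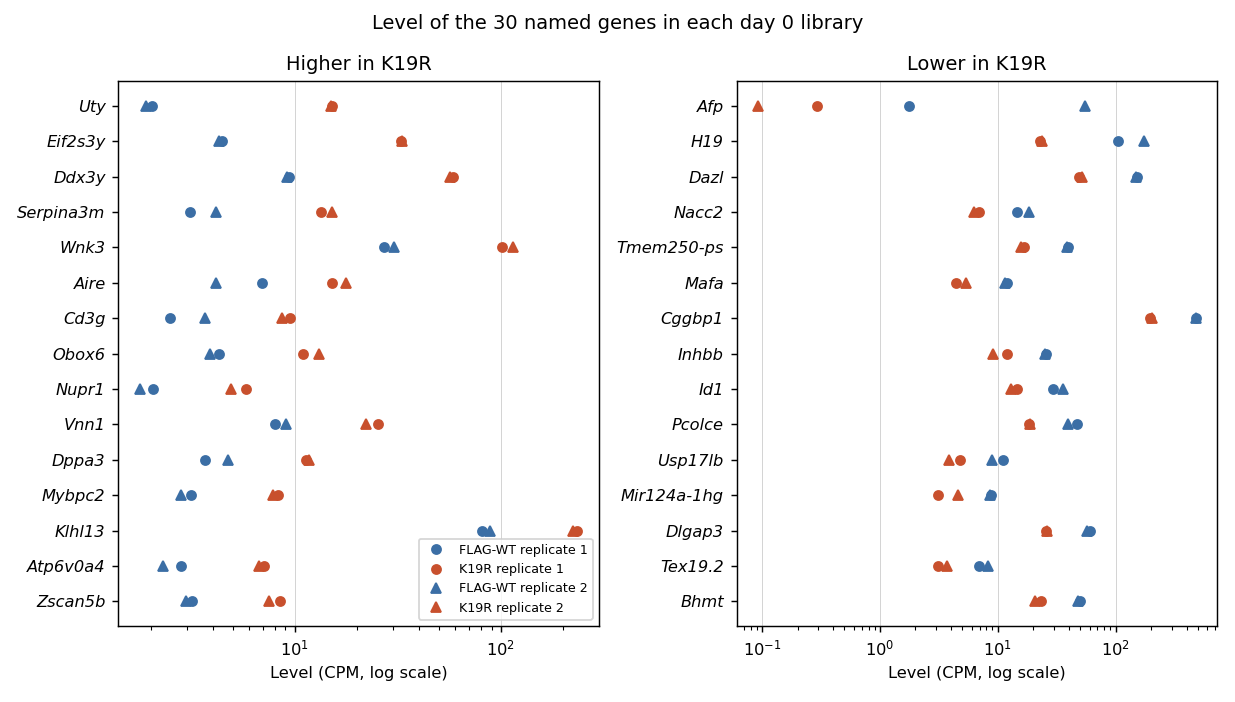
Level in CPM (log axis) of the 15 genes with the largest rise and the 15 with the largest fall among those that hold and reach 5 CPM in the higher group, in each of the 4 day 0 libraries. Blue marks FLAG-WT, orange K19R, circles replicate 1 and triangles replicate 2. Genes were chosen so that the K19R pair lies outside the FLAG-WT pair, and Afp has the widest gap within FLAG-WT (1.78 and 54.99 CPM).

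Eed itself did not differ detectably, and few subunits of its complexes changed in a way that held. Eed, which lies on chromosome 7 (89954654 to 89980983 on GRCm38), stood at 182 and 175 CPM in FLAG-WT and at 199 and 180 in K19R. Its change of 0.09 ± 0.07 was not called (adjusted p = 0.51). Gene-level counts carry no information on the substituted codon. Of 13 tested PRC2 genes, the accessory subunit Jarid2 and the methyltransferase Ezh1 were called, both higher (15.4% against 10.5% of all genes), and Jarid2 held (365 and 370 against 450 and 458 CPM; 0.31 ± 0.07, adjusted p = 0.0038). When FLAG-WT replicate 1 was left out instead, Jarid2 missed the threshold (0.29, adjusted p = 0.056). The catalytic subunit Ezh2 (0.05 ± 0.07) and the scaffold Suz12 (-0.13 ± 0.08) were not called.

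Of 23 PRC1 genes, 3 were higher and 3 lower (26.1% called, against 10.5% of all genes). The 2 that held were L3mbtl2 and Kdm2b. L3mbtl2, a subunit of the variant PRC1.6 that also contains MGA and MAX and represses germ cell genes, stood at 160 and 162 CPM in FLAG-WT and at 226 and 222 in K19R. It rose by 0.48 ± 0.06 (adjusted p = 1.1e-05). Kdm2b, which brings variant PRC1 to CpG islands, stood at 291 and 285 against 381 and 372 CPM and rose by 0.39 ± 0.07 (adjusted p = 0.00025). The K19R libraries were above the FLAG-WT libraries in both genes. PRC1 members that were called lower, Yaf2 (-0.49), Phc2 (-0.38) and Cbx6 (-0.26), did not hold.

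Regulators that PRC2 is known to keep silent showed no detectable shift as a group. edgeR called none of 30 tested Hox genes, where DESeq2 also called 0 and 4 had an unadjusted p under 0.05, and their median change was 0.06. Single Hox genes changed by -3.15 to 3.17 without being called. Large differences could thus go uncalled, and the lack of calls does not show that these genes were unchanged. Among 59 other textbook Polycomb targets, 4 were higher and 4 lower (13.6% against 10.5% of all genes). The median was -0.01 and turned to 0.01 under RLE scaling and 0.02 without FLAG-WT replicate 2. Of these 8, 3 held, among them Cdkn2a and Gata6. Cdkn2a, the locus of the cell cycle inhibitors p16 and p19, fell by 0.68 ± 0.11, from 13.04 and 12.02 to 7.89 and 7.77 CPM. Gata6, a regulator of endoderm, stood at 2.52 and 1.86 against 1.44 and 1.12 CPM (-0.75 ± 0.21). It was not called without FLAG-WT replicate 1 (-0.52) or without K19R replicate 2 (-0.59).

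The 9 naive stem cell markers summed to 6114 and 6047 CPM in FLAG-WT and to 6255 and 6020 in K19R, so both lines carried the markers of their label. Of 15 core pluripotency genes edgeR and DESeq2 called 0, with 2 at an unadjusted p under 0.05. Klf4 stood at 282 and 285 against 290 and 295 CPM (0.04 ± 0.08, adjusted p = 0.8). Of 21 naive pluripotency genes 2 were called (9.52%, near the 10.5% of all genes): Dppa3 was higher and Stat3, the effector of LIF, was lower by 0.33 ± 0.07 (122 and 121 against 97.9 and 95.8 CPM).

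Of 16 genes of DNA methylation and demethylation, 3 were called (18.8%, against 10.5% of all genes), all higher in K19R. The list's median was 0.01. The de novo machinery has catalytic enzymes, encoded by Dnmt3a and Dnmt3b, and the inactive partner DNMT3L, which stimulates them in germ cells and early embryos. Dnmt3l (chromosome 10, 78041947 to 78063622) stood at 106 and 108 CPM in FLAG-WT and at 259 and 260 in K19R. It rose 2.42-fold (log2 change 1.27 ± 0.10, adjusted p = 3.3e-09). Dnmt3b stood at 79.6 and 84.1 against 126 and 132 CPM (0.65 ± 0.08, adjusted p = 2.3e-06). In both genes the lines differed by far more than their replicates. The third member called, Dppa3, protects the maternal genome from demethylation and limits maintenance methylation. It stood at 3.67 and 4.74 against 11.3 and 11.7 CPM (1.45 ± 0.16). Dnmt3l, Dnmt3b and Dppa3 held and were also called whichever day 0 library was left out.

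The other 13 members of the DNA methylation list were not called. Dnmt3a changed by 0.16 ± 0.07 (adjusted p = 0.14), the maintenance enzyme gene Dnmt1 by 0.01 ± 0.07, and the demethylase genes Tet1 and Tet2 by -0.09 ± 0.11 and 0.01 ± 0.09. At day 2 the rise of Dnmt3b was 0.63 ± 0.07, while that of Dnmt3l was 0.11 and not called. The change of Dnmt3l between days 0 and 2, tested as an interaction, was -1.16 ± 0.14 (adjusted p = 5.2e-07).

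More genes of the germ line were lower in K19R than higher. Of 34 tested members, 13 were lower and 2 higher (44.1% called, against 10.5% of all genes). Of the lower ones 9 held, and the median change was -0.23 against -0.0024 over all genes. Dazl, an RNA-binding protein of germ cells (chromosome 17, 50279395 to 50293636), stood at 153 and 148 CPM in FLAG-WT and at 49.2 and 51.3 in K19R. It fell by 1.58 ± 0.10 (adjusted p = 2.7e-11). Tex19.1, which acts on retrotransposons and placental growth, stood at 164 and 165 against 104 and 91.9 CPM (-0.74 ± 0.09). Ddx4, the germ cell helicase VASA, stood at 6.85 and 7.87 against 3.06 and 3.91 CPM (-1.09 ± 0.16). In these 3 genes the libraries of the lines did not overlap.

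Genes of the piRNA pathway, which silences transposons in germ cells, were among those that fell and held. Piwil2 fell by 0.71 ± 0.13, the helicase gene Mov10l1 by 0.65 ± 0.19 and Fkbp6 by 0.59 ± 0.13. Taf7l, a testis form of a general transcription factor subunit on the X chromosome, stood at 3.22 and 2.174 against 0.996 and 0.605 CPM (-1.70 ± 0.29). The X-linked homeobox genes Rhox5 (-0.49 ± 0.08) and Rhox6 (-1.28 ± 0.29) were also lower and held. Fkbp6 and Rhox6 missed the threshold without K19R replicate 2 (-0.51 and -1.13). Mov10l1 missed it without FLAG-WT replicate 1 (-0.51) and without K19R replicate 1 (-0.74) or 2 (-0.58). Stk31 (0.52) and Zp3 (0.65), the pair that was higher, did not hold.

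Promoters of 4 of the lower germ cell genes are shown because many genes of this class carry the E-box, a motif that MAX and its partners bind. Each line gives the 250 bases before the start of transcription on GRCm38.p6, from RefSeq, 5′ to 3′ on the strand of the gene, with CACGTG in capitals. They are Dazl at chr17:50293621-50293870 (minus strand), Ddx4 at chr13:112652311-112652560 (minus), Taf7l at chrX:134476491-134476740 (minus) and Mov10l1 at chr15:88982744-88982993 (plus).
Dazl: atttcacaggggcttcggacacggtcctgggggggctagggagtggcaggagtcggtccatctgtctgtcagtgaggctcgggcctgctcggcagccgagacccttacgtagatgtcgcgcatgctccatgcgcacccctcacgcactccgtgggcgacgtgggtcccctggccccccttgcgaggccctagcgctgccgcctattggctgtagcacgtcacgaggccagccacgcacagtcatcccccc
Ddx4: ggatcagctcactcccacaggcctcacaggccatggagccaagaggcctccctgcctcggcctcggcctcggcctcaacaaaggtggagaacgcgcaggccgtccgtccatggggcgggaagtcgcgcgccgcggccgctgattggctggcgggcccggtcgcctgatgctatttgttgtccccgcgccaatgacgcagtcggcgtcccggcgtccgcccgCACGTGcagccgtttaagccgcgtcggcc
Taf7l: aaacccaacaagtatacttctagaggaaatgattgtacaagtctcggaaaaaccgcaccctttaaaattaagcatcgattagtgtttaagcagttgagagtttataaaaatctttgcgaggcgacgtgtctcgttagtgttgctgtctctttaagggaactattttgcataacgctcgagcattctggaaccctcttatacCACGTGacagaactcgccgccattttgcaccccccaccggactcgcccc
Mov10l1: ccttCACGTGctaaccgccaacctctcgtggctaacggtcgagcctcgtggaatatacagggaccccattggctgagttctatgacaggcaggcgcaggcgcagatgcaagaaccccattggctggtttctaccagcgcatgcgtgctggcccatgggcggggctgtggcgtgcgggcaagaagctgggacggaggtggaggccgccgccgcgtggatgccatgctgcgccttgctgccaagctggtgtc

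The motif CACGTG reads the same on both strands. It stood in 1 place in the windows of Ddx4, Taf7l and Mov10l1 and in none in that of Dazl. RefSeq starts can differ from those of the annotation used for counting, where Dazl starts at 50293636 and Ddx4 at 112652475. By that annotation part of the Dazl window and part of the Ddx4 window lie inside the gene. The motif of Ddx4 is in that part. Of 32851 RefSeq promoter windows 6.02% held it, and of the 12912 tested genes with a window 9.44%. Among germ cell members it was in 5 of the 10 lower genes with a window and in 10 of the 19 others, so its share did not set the lower members apart within the list. The windows of Dazl, Ddx4, Taf7l and Mov10l1 held 20, 31, 14 and 19 CG dinucleotides, against a median of 14 over tested genes. The median was 18 for the 268 lower genes that held and had a window and 13 for the 312 higher ones.

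Transcripts of the two-cell-like state, a rare fluctuation of stem cells towards the program of the early embryo, were called in 1 direction. Of 23 tested members, 11 were lower (47.8% called, against 10.5% of all genes), 12 were not called, and 8 of the lower ones held. The median change was -0.71. Zscan4d stood at 24.4 and 22.1 CPM in FLAG-WT and at 12.2 and 12.4 in K19R (-0.92 ± 0.15, adjusted p = 0.00012). Usp17lb stood at 11.1 and 8.97 against 4.80 and 3.86 CPM (-1.20 ± 0.20). The lines did not overlap in either gene. Members of the Zscan4 and Usp17l families are near copies of each other, so reads could not always be assigned and the number of lower members counts related sequences more than once. At day 2 the same list had 19 members higher in K19R and 1 lower, at day 6 it had 12 called, each of them lower, and at day 10 it had 18 higher and 1 lower. Of the genes with the largest rises at day 0, the homeobox gene Obox6 (4.29 and 3.87 against 10.96 and 13.1 CPM) changed by 1.56 ± 0.21 and Zscan5b by 1.39 ± 0.22.

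Imprinted genes, expressed from a single parental copy, moved in both directions. Of 44 tested, 5 were higher and 7 lower (27.3% called, against 10.5% of all genes), and 8 held. H19, a maternally expressed non-coding RNA, fell by 2.58 ± 0.14 with all libraries and by 2.2 without FLAG-WT replicate 2, the library in which it was highest (104 and 172 against 22.8 and 23.6 CPM). H19 is abundant in endoderm. Gnas (-0.66 ± 0.12), Zdbf2 (-0.48 ± 0.12), Mest (-0.35 ± 0.09) and Impact (-0.34 ± 0.07) were lower too. Usp29 rose by 1.30 ± 0.20 (1.57 and 2.02 against 4.39 and 4.47 CPM), the thyroid hormone deiodinase gene Dio3 by 0.80 ± 0.12, and the retrotransposon-derived Peg10 by 0.33 ± 0.10. Several of these calls depended on 1 library: without FLAG-WT replicate 1 Mest, Zdbf2 and Peg10 were not called (-0.33, -0.46 and 0.16), without K19R replicate 1 Gnas, Mest and Zdbf2 were not (-0.48, -0.38 and -0.33), and without K19R replicate 2 Mest and Peg10 were not (-0.32 and 0.24).

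More glycolytic genes were higher than lower. Of 36 hypoxia and glycolysis genes, 13 were higher and 1 lower (38.9% called, against 10.5% of all genes). Of the higher ones 9 held, and the median change was 0.18. The enzymes that held run along the pathway: phosphofructokinase (Pfkl, 0.60 ± 0.07), triosephosphate isomerase (Tpi1, 0.63 ± 0.07), enolase (Eno1, 0.50 ± 0.07), pyruvate kinase (Pkm, 0.38 ± 0.07) and lactate dehydrogenase (Ldha, 0.52 ± 0.07). Tpi1 stood at 73.2 and 72.3 CPM in FLAG-WT and at 111 and 115 in K19R, and Pkm at 1605 and 1589 against 2107 and 2056. The glucose transporter gene Slc2a1 stood at 117 and 121 against 160 and 156 CPM. In each of these genes the K19R pair lay above the FLAG-WT pair. Eno1b, which also held, is a near copy of Eno1, and reads of the pair may have been divided between them. Hypoxia-inducible genes with other roles, the mitophagy receptor Bnip3 (1.13 ± 0.12) and the oxygen sensor Egln3 (1.05 ± 0.19), rose as well. Genes of the mitochondrial genome were not called in edgeR or DESeq2 (0 of 13, with 0 at an unadjusted p under 0.05).

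The integrated stress response couples amino acid shortage to the transcription factor ATF4, whose targets include genes of serine synthesis. Of 27 members, 7 were higher and 1 lower (29.6% called, against 10.5% of all genes), and 5 of the higher ones held. Phgdh and Psat1, which encode successive enzymes of serine synthesis, stood at 76.2 and 72.9 against 104 and 96.2 CPM and at 167 and 173 against 231 and 213 CPM. They rose by 0.43 ± 0.07 and 0.39 ± 0.07. Nupr1, a small stress-induced nuclear protein, rose by 1.48 ± 0.23 at 2.06 and 1.78 against 5.79 and 4.89 CPM. Cebpb, a partner of ATF4, went the other way (2.44 and 2.53 against 0.627 and 0.838 CPM; -1.78 ± 0.29). At day 2 none of these 27 genes was called higher by edgeR and 23 were lower in K19R. Over all genes 20% were higher and 21.8% lower that day.

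Targets of growth factor signals were lower in part. The ERK pathway is held down in 2i by the MEK inhibitor, and the list holds its feedback inhibitors and target genes. Of 22 tested, 6 were lower and 1 higher (31.8% called, against 10.5% of all genes), and 4 of the lower ones held. Ccnd1, cyclin D1, stood at 151 and 150 CPM in FLAG-WT and at 97.9 and 97.9 in K19R (-0.62 ± 0.08, adjusted p = 5.1e-06). Dusp9, an X-linked phosphatase of ERK, stood at 129 and 139 against 88.5 and 74.8 CPM (-0.71 ± 0.09), Myc at 7.35 and 6.44 against 3.76 and 3.40 (-0.94 ± 0.14) and Spred1 at 13.3 and 13.8 against 8.01 and 8.10 (-0.75 ± 0.14). The lines did not overlap in any of them. Ccnd1 and Myc also belong to the WNT target list, where Tcf7 was lower (-0.63 ± 0.08) and Apcdd1 higher (0.85 ± 0.13).

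Of 20 BMP and TGF-beta genes, 5 were lower and 3 higher (40.0% called, against 10.5% of all genes), and 4 held. Id1, an inhibitor of basic helix-loop-helix factors and a direct BMP target, stood at 29.3 and 35.8 against 14.6 and 13.03 CPM and fell by 1.23 ± 0.10 (adjusted p = 4.7e-09). Id3, of the same family, fell by 0.74 ± 0.14. Smad6, an inhibitor of BMP signalling, rose by 0.66 ± 0.13 (13.95 and 14.5 against 22.9 and 21.9 CPM). Inhbb, a subunit of activin B, fell by 1.25 ± 0.16 (25.5 and 25.1 against 11.95 and 9.17 CPM).

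Several genes of epithelia and of the basement membrane were higher. Of 33 genes of extracellular matrix and adhesion, 8 were higher and 3 lower (33.3% called, against 10.5% of all genes). Of these, 5 of the higher ones and 1 of the lower ones held. Epcam, an adhesion molecule of epithelia and stem cells, rose by 0.66 ± 0.08 (28.3 and 27.8 against 44.4 and 44.4 CPM), the splicing regulator Esrp1 by 1.14 ± 0.18, and the laminin genes Lama5 and Lamc1 by 0.55 ± 0.10 and 0.53 ± 0.11. The keratin gene Krt19 rose by 0.49 ± 0.11, a call lost without FLAG-WT replicate 1 (0.43) or K19R replicate 2 (0.45), while Krt8 was the lower one that held (50.1 and 57.7 against 40.1 and 36.4 CPM; -0.49 ± 0.08). Grhl2, an epithelial transcription factor counted in the formative list, rose by 1.12 ± 0.12 (7.06 and 7.43 against 15.7 and 15.8 CPM). Twist1, a regulator of mesenchyme in the fibroblast list, fell by 1.02 ± 0.16 (5.86 and 5.495 against 2.88 and 2.7 CPM). That list did not fall as a whole: of 13 tested genes 1 was higher, 2 were lower and 10 were not called, and the median change was 0.28. Of the 9 fibroblast or feeder markers, Lum and Twist2 were at 0 in every library, and the sum of all 9 was 8.96 and 9.92 CPM in FLAG-WT and 9.52 and 8.70 in K19R.

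Histone genes and regulators of growth arrest included further falls. Of 23 histone genes, 5 were lower and 1 higher (26.1% called, against 10.5% of all genes), and 3 held. They were H3f3b, which encodes the replacement histone H3.3 (993 and 970 against 715 and 678 CPM, -0.49 ± 0.07), and the variant genes H2afy (-0.49 ± 0.07) and H2afx (-0.35 ± 0.08). H2afx was not called without FLAG-WT replicate 1 (-0.31) or K19R replicate 2 (-0.29). Of 22 p53 pathway genes, 4 were lower and 2 higher (27.3% called). Cdkn1a, the cell cycle inhibitor p21, stood at 86.0 and 95.5 against 60.7 and 63.1 CPM (-0.55 ± 0.08), and the adhesion gene Perp changed by -0.52 ± 0.08. Among 27 interferon and antiviral genes 4 were higher (14.8% called, near the 10.5% of all genes). Among 25 lysosome and autophagy genes 4 were higher and 3 lower (28.0% called). None of the calls in these 2 lists held.

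The largest rises and falls outside these lists covered a range of roles. Wnk3, a kinase that regulates ion transport, stood at 27.2 and 30.4 CPM in FLAG-WT and at 100.7 and 115 in K19R (1.90 ± 0.10, adjusted p = 1.6e-12). Klhl13, an adaptor of a ubiquitin ligase, stood at 81.3 and 88.2 against 234 and 224 CPM (1.44 ± 0.07). Both lie on the X chromosome and were 3.74-fold and 2.71-fold higher. Other rises were those of Serpina3m (1.97 ± 0.23), Cd3g (1.56 ± 0.26), Vnn1 (1.48 ± 0.13), Mybpc2 (1.44 ± 0.22) and Atp6v0a4 (1.44 ± 0.22). Among the falls, Pcolce, which helps to process collagen, stood at 46.8 and 39.5 against 18.5 and 18.6 CPM (-1.22 ± 0.14) and Bhmt, an enzyme of methionine synthesis, at 49.4 and 47.9 against 23.2 and 20.5 (-1.15 ± 0.13). Dlgap3 (-1.19 ± 0.10), Mafa (-1.26 ± 0.25), Tex19.2 (-1.16 ± 0.19) and Mir124a-1hg (-1.19 ± 0.24) were lower as well. Mir124a-1hg was the one of the 30 largest changes that missed the threshold when another library, K19R replicate 1, was left out (-0.93, adjusted p = 0.073).

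Genes of the Y chromosome were higher in K19R. Uty stood at 2.02 and 1.90 CPM in FLAG-WT and at 15.2 and 14.9 in K19R, Eif2s3y at 4.42 and 4.31 against 32.9 and 33.3, and Ddx3y at 9.33 and 9.13 against 58.5 and 56.8. The folds were 7.69, 7.57 and 6.25. Of the 7 Y-linked genes tested, 5 were called, all higher, and the median change was 2.64. The replicates of each line differed little beside this.

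X-linked genes were lower by a small amount that varied along the chromosome. Of 702 tested, 85 were lower (12.1%) and 23 higher (3.28%), with a median of -0.12, which moved to -0.10 under RLE scaling and to -0.15 under scaling by totals. Of 359 X-linked genes at a mean of 5 CPM or more, 254 had a change below 0. The median was below 0 in each of 9 consecutive stretches of 20 Mb that held such genes, from -0.20 to -0.015. In the stretch nearest to 0, 23 of 45 genes were below 0. At the same cut of 5 CPM the median was -0.11 over the X chromosome. Over the autosomes it ran from -0.05 on chromosome 14 to 0.07 on chromosome 6. A median slightly below 0 therefore does not set a single stretch apart. Chromosome 6 was shifted upward, with 72 tested genes called higher (7.65%) and 26 lower (2.76%). Centred on each gene's mean, the X median was 0.05 and 0.06 (log2) in the FLAG-WT replicates and -0.06 and -0.05 in the K19R replicates. Xist, which drives X inactivation, was at 5.41 and 4.70 against 2.62 and 2.37 CPM (-1.01 ± 0.17), and its antisense partner Tsix at 6.52 and 6.48 against 9.89 and 9.36 (0.57, which did not hold). The counting gave no strand option, so reads of Xist and Tsix where they overlap cannot be told apart.

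Neighbouring genes moved together in several places. Genes with a mean of at least 5 CPM were put in order along each chromosome, and runs of at least 4 in a row called in the same direction were joined across a single gene that was not. Such runs were found in 7 places. The run with the most genes lay on chromosome 8 (84661331 to 85555344), where 27 of 29 genes were called higher and 19 of them held. The remaining genes, Dnase2a (0.30) and Wdr83os (0.24), were not called. Changes ran from 0.23 to 0.79 with a median of 0.43, or 1.35-fold.

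The rule ends a run where genes are no longer called, so the values beside it are a description. The last gene before the chromosome 8 run, the calcium channel gene Cacna1a (46.7 and 46.0 against 45.7 and 51.0 CPM), changed by 0.06 ± 0.09, and the first after it, Neto2, by -0.06 ± 0.17. Genes within it had unrelated roles. The chaperone gene Calr stood at 1190 and 1193 CPM in FLAG-WT and at 1565 and 1602 in K19R, Asna1 at 292 and 280 against 401 and 402, the retromer subunit gene Vps35 at 282 and 285 against 393 and 367, and the ribonuclease subunit gene Rnaseh2a at 65.8 and 66.1 against 106 and 97.3. In each the K19R pair was higher. Among 17 neighbours on its sides the median was 0.05 and 3 were called. Some genes of the run overlap, and reads in such overlaps cannot be assigned without strand. At day 2, in other libraries of the same lines, 25 of the 29 were higher and 1 lower (median 0.50). At day 10, 20 were higher and 5 lower (median 0.37), and at day 6 the counts were 14 and 9 (median 0.07). Outside the run, 88 of 1001 tested genes of chromosome 8 were called higher (8.79%, against 5.51% of all genes).

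**Figure D3:**
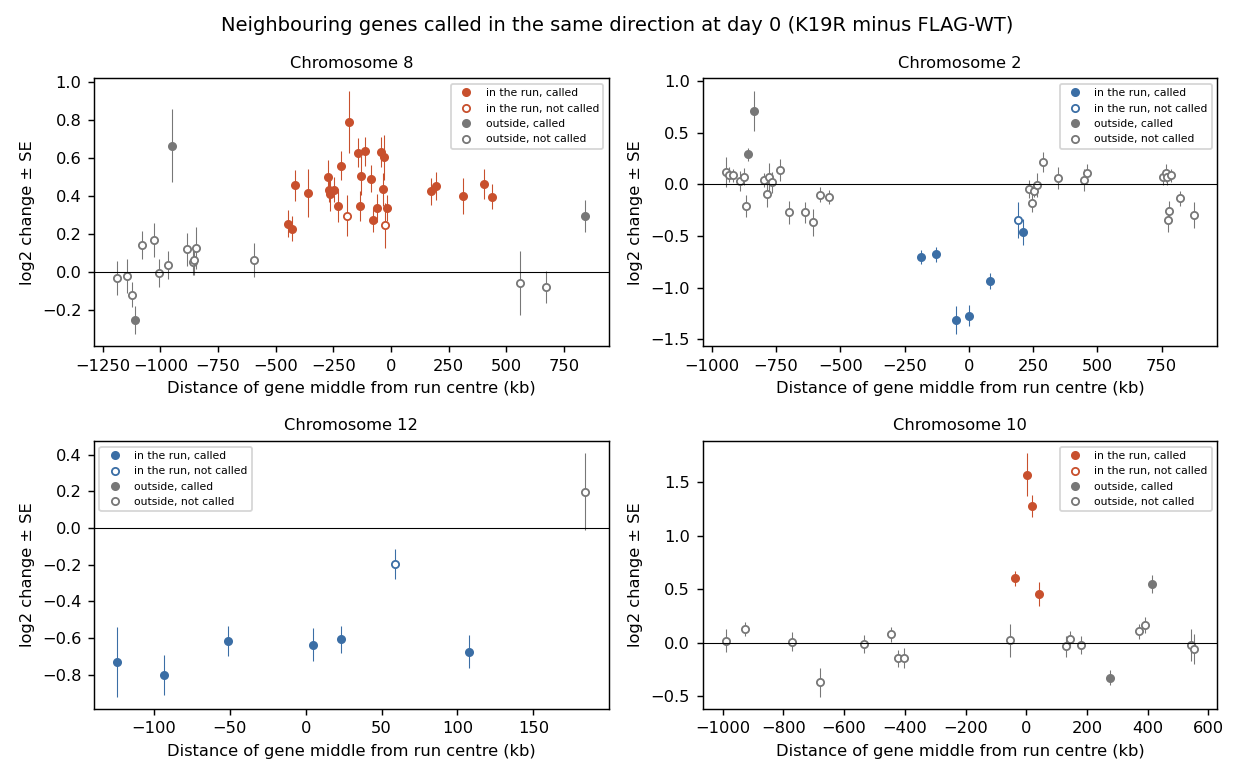
Log2 change at day 0 (K19R minus FLAG-WT, bars are SE) of genes around 4 of the runs, by distance in kb from the centre of the run. Filled points were called and open points were not, and colour marks genes in the run. On chromosome 8 the genes of the run lie between 0.23 and 0.79 and most neighbours lie near 0.

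On chromosome 2 (25926838 to 26352110) 6 of 7 genes were lower and 5 held. Nacc2, a transcriptional repressor, stood at 14.6 and 18.5 against 6.94 and 6.33 CPM (-1.31 ± 0.13), Tmem250-ps at 39.4 and 38.4 against 16.5 and 15.6 (-1.27 ± 0.10), and the sulfhydryl oxidase gene Qsox2 at 133 and 141 against 73.3 and 69.3 (-0.94 ± 0.08). Camsap1 and Ubac1, on the other side of Nacc2, changed by -0.70 and -0.68. Changes were largest in the middle of the run, and the median of 34 neighbours was 0.04. Of the 7, 6 were lower at day 2, 4 were lower and 2 higher at day 6, and 5 were lower and 1 higher at day 10.

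On chromosome 12 (64917906 to 65172604) 6 of 7 genes were lower, and the one between them, Fancm, changed by -0.20. Fkbp3 stood at 234 and 227 against 154 and 148 CPM (-0.61 ± 0.07), Togaram1 at 99.2 and 100.7 against 65.3 and 65.3 (-0.61 ± 0.08), and Klhl28 at 35.1 and 31.4 against 19.07 and 19.13 (-0.80 ± 0.11). The 6 changes lay between -0.80 and -0.61. At days 2 and 6, 6 of the 7 were lower, and at day 10, 4 were lower and 1 higher.

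On chromosome 10 (77986947 to 78083913) all 4 genes were higher and held. They were Pfkl (0.60), Aire (1.57 ± 0.20), Dnmt3l (1.27) and Icosl (0.45 ± 0.11), so the rises of Dnmt3l and of Pfkl described above lay beside rises of their neighbours. Aire (78030022 to 78043610, minus strand) and Dnmt3l (from 78041947, plus strand) overlap at their starts, where reads cannot be told apart without strand. Icosl missed the threshold when FLAG-WT replicate 1 or either K19R replicate was left out (0.40 to 0.47). Aire, which drives expression of tissue genes in the thymus, stood at 6.94 and 4.15 against 15.2 and 17.8 CPM. The run on chromosome 7 (10794242 to 12496235, 9 of 10 lower) was the Zscan4 cluster with Zfp606. Runs on chromosome 5 (4081145 to 5749326, 5 genes from Cyp51 to Steap1) and on X (74329066 to 74393272, 4 genes from Plxna3 to Fam3a) had medians of -0.44 and -0.47. None of the former and 2 of the latter held, and Fam3a was not called without FLAG-WT replicate 1 (-0.52) or K19R replicate 2 (-0.48). Cggbp1, a protein that binds CGG repeats, was in no such run (476 and 476 against 197 and 202 CPM; -1.26 ± 0.07).

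The last question was which day 0 differences the embryoid bodies still showed. The later comparisons use other libraries of the same lines and call many more genes. At day 2, 20% of all genes were higher in K19R and 21.8% lower. The shares were 28.4% and 30.1% at day 6 and 33.2% and 25.2% at day 10. Of the 441 genes that were higher at day 0 and held, 181 were higher at day 2 (41.0%), 155 at day 6 (35.1%) and 182 at day 10 (41.3%), while 118, 196 and 154 were lower. Of the 376 that were lower, 159 were lower at day 2 (42.3%), 174 at day 6 (46.3%) and 148 at day 10 (39.4%), while 79, 110 and 135 were higher.

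A set of 133 genes, 67 higher and 66 lower, kept their direction at all 4 days, and 76 were called in the opposite direction at all 3 later days. The steady ones included the Y-linked genes, Wnk3 (1.90, 1.35, 1.87 and 2.61 at days 0, 2, 6 and 10), Dppa3 (1.45, 1.22, 2.43 and 2.59), Aire (1.57, 1.09, 1.20 and 2.98) and the neurotrophin receptor gene Ntrk2 (1.00, 0.98, 3.84 and 1.76). Cggbp1 (-1.26, -1.42, -1.19 and -0.88), Klhl28 (-0.80, -1.26, -1.56 and -1.42), the procollagen protease gene Bmp1 (-0.90, -1.60, -1.07 and -0.94), the small GTPase gene Rhob (-0.81, -0.76, -1.87 and -2.28) and Ddx4 (-1.09, -0.75, -0.74 and -0.91) were lower throughout. Dazl did not stay lower: its change was -1.58 and -0.79 at days 0 and 2 and 1.99 and 4.88 at days 6 and 10.

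**Figure D4:**
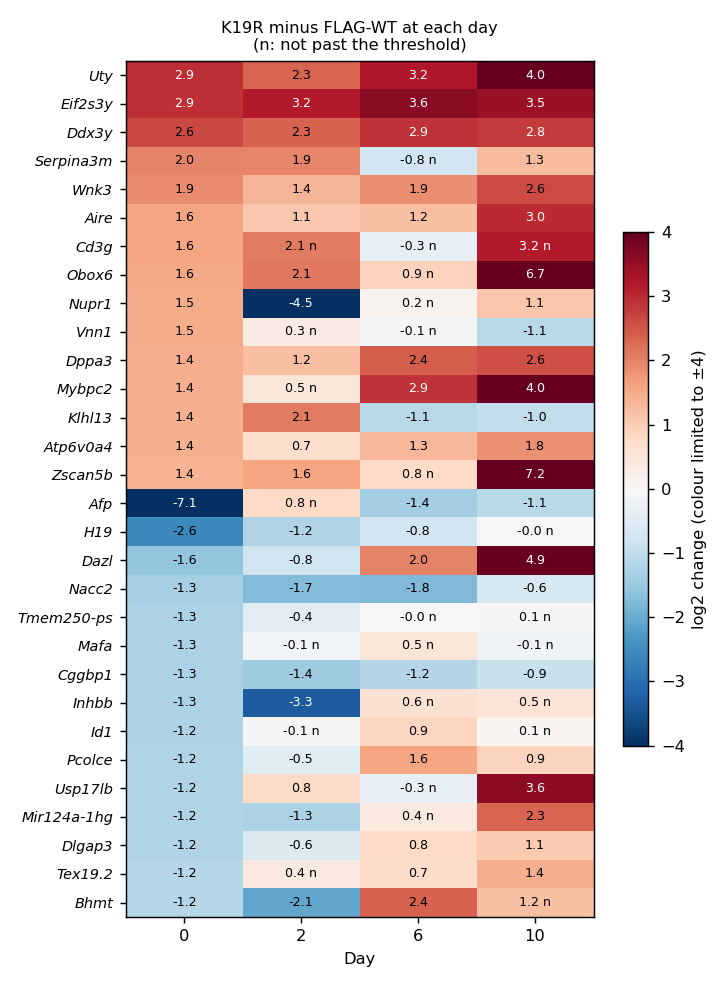
Log2 change between the lines (K19R minus FLAG-WT) at days 0, 2, 6 and 10 for the same 30 genes as in the plot of levels by library, with the value in each cell and n where it did not pass the threshold. Colours are limited to 4 in either direction. Wnk3 and Cggbp1 keep their direction throughout, while Nupr1 goes from 1.48 to -4.54 at day 2 and Dazl from -1.58 to 4.88 at day 10.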

How the data were processed

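Total RNA was isolated with a column kit and made into libraries with a total RNA kit, per the labels' protocols. The deposited values are unnormalized gene counts that the authors made with featureCounts 1.6.3, per the file headers, from GENCODE annotation of GRCm38. The submitters' processing notes also name Trim Galore 0.6.0 and STAR 2.7.0c. Of 54429 names, 19092 passed filterByExpr (a count minimum of 10, and 15 in total). All 16 FLAG-EED libraries entered 1 fit (edgeR 4.0.16 in R 4.3.3, glmQLFit, TMM factors, 8 residual degrees of freedom), since they share an estimate of spread, and glmQLFTest compared the lines two-sided with Benjamini-Hochberg adjustment at 0.05. SE was taken as the size of the change divided by the root of F. Replicates differed by more than sampling noise (chi-square per degree of freedom 2.28 and 5.41). No source states separate cultures, so the p-values reflect only the spread among these libraries, which may be technical.

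The 40 gene lists, the alternatives and the rule for names were chosen with earlier results of these data known. The rule names, among genes that hold, do not overlap between groups and reach 5 CPM in the higher group, the 15 largest changes in each direction, the 8 largest that do not hold, and 2 to 4 called members of each list. The text goes past that number for several lists; the further members, the genes of the runs and those of the set steady over days were chosen after their values were seen. The fitting script was tested on simulated counts. The wildtype stem cell libraries were not used here. The result for 1 gene is not reported here.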

Additional observations from a re-analysis of the deposited data

Results flagged for a closer look

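Of the 127 genes named in the text and called at day 0, 21 were called in the opposite direction at day 2 with a change between the days that itself passed edgeR's interaction test. The same held for 38 at day 6 and 33 at day 10. Nupr1 moved most, from 1.48 ± 0.23 at day 0 to -4.54 ± 0.20 at day 2, a change of -6.02 ± 0.30 (adjusted p = 6.4e-14). Opposite calls were common among all genes that hold. At day 2 they made up 26.76% of the 441 higher genes and 21.01% of the 376 lower ones. The shares were 44.44% and 29.26% at day 6 and 34.92% and 35.9% at day 10. Those shares did not require the interaction test. Whether the named genes reversed more often than other genes was not tested.

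From higher to lower, the changes in the log2 difference between the lines from day 0 to day 2 were -4.30 for Dab2, -3.97 for Lrp2, -1.54 for Psat1, -1.52 for Lamc1, -1.44 for Tsix, -1.09 for Phgdh, -0.80 for Krt19 and -0.72 for Ezh1. From lower to higher, the changes were 2.16 for Zscan4d, 1.96 for Usp17lb, 1.59 for Id3, 1.36 for Tcf7, 1.22 for Dusp9, 1.15 for Ccnd1, 1.05 for Rhox5, 1.04 for Tex19.1, 0.97 for Cdkn2a, 0.82 for Mest, 0.77 for H2afx and 0.70 for Phc2.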

How the results depend on the processing

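Fitting the 4 day 0 libraries alone gave 4014 calls, 2121 higher and 1893 lower, with 2275 that held. Leaving out 1 day 0 library gave 845 to 955 calls, 441 to 568 higher and 385 to 438 lower. Requiring a 2-fold change in both fits left 159 genes that held. Called genes were higher in 52.5% of cases, and in 42.65% with library totals as the scaling. The cause of these differences was not tested. With a replicate block 1921 genes were called and 754 held, but same-numbered libraries did not deviate together (r = -0.0055 over 19092 genes, 2 pairs), so the numbers do not pair them.

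Values near 0 changed sign. Without 1 library, Cacna1a ranged from -0.01 to 0.14, Dnmt1 from -0.04 to 0.06, Neto2 from -0.14 to 0.02, Tet1 from -0.19 to 0.01 and Tet2 from -0.07 to 0.10; with library totals Dnmt1 was -0.02 and Tet2 -0.01. None of these was called. The depth of 2 libraries a group limits small changes of weakly expressed genes.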
